A study of Homo sapiens with 12 samples.

Results

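The integrin subunits and laminin chains are a set of 31 genes, 21 encoding integrin subunits (13 α and 8 β) and 10 encoding laminin chains (5 α, 3 β and 2 γ), read by their symbols from the 55765 symbols of the count tables. RNA was sequenced from Hs 578T cells, a mesenchymal-like TNBC line, transduced with lentivirus to express GFP as the control or NRF2, the transcription factor that drives antioxidant and detoxification genes. Cells of both kinds were kept for 8 h in medium with 0.8 mM cystine (with Cyss) or in the same medium with no cystine added (without Cyss), with 3 libraries in each of the 4 groups. For all 4 groups the medium was a DMEM made without cystine, methionine and glutamine, to which methionine, glutamine and serum had been added back. The methods describe no selection of clones after transduction, so each library is of a mixed population of transduced cells.

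Integrins are receptors that span the plasma membrane as a pair of an α and a β subunit, bind matrix proteins outside the cell and couple to actin through adaptors such as talins and kindlins inside it. Laminins are secreted trimers of an α, a β and a γ chain that polymerise in the basement membrane and are themselves ligands of several integrins. In carcinoma cells, both families are known for their part in adhesion, spreading and migration.

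Between 27250993 and 44596870 reads per library fell on genes (median 32857536). Counts were normalized by edgeR's TMM method over all 12 libraries for the levels given here. NFE2L2, which encodes NRF2, had 3647 to 4655 normalized counts in the GFP libraries and 6598 to 8396 in the NRF2 libraries, with no overlap. The labels call the cells epithelial, but of 9 epithelial markers CDH1, EPCAM, CLDN3, CLDN7 and KRT19 held at most 13.8 normalized counts in any library and KRT18 and KRT8 were the ones above 100, whereas all 7 mesenchymal markers were high, VIM with a median of 153780. The summed epithelial markers, nearly all KRT18 and KRT8, ranged from 1130 to 1269 in GFP cells with Cyss, 1350 to 1705 in GFP cells without Cyss, 949 to 1061 in NRF2 cells with Cyss and 1346 to 1594 in NRF2 cells without Cyss. They were thus higher without Cyss in both kinds of cells, and their part in the results below was not tested. Leukocyte, endothelial and platelet markers summed to at most 82.9, 15.8 and 20.3 normalized counts per library. Of the 3 libraries of GFP cells without Cyss, replicate 3 stood apart on the first principal component of all genes (26.9% of the variance), at 3.61 against -12.0 and -9.21, towards the NRF2 libraries without Cyss, which lay from 27.1 to 30.2. Results that rest on that group are therefore also given without this library. The labels do not say whether replicates came from separate cultures, so p-values measure the spread between these libraries, and in bulk RNA fewer cells with a transcript and less of it per cell cannot be told apart.

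For the laminin and integrin genes that moved most, RefSeq windows (GRCh38.p14) show what lies at the promoter. Each runs from 250 bases before to 50 bases after a start listed for the gene. The pair below is ITGA2 and LAMB3, chosen by adjusted p in NRF2 cells without against with Cyss. Theirs were the smallest among receptors and among laminin chains, of the members that have a window. The windows, printed 5′ to 3′ on the gene's strand, are chr5:52989102-52989401 (plus strand) for ITGA2 and chr1:209651325-209651624 (minus strand) for LAMB3, the window of 3 listed for LAMB3 that holds a motif. Capitals mark TGAGTCA on either strand, the AP-1 motif.
ITGA2: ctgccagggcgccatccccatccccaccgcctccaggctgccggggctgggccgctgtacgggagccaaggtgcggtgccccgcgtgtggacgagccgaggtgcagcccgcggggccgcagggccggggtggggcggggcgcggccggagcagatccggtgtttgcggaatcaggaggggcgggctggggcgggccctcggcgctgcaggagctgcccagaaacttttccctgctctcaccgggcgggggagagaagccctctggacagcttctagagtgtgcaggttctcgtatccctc
LAMB3: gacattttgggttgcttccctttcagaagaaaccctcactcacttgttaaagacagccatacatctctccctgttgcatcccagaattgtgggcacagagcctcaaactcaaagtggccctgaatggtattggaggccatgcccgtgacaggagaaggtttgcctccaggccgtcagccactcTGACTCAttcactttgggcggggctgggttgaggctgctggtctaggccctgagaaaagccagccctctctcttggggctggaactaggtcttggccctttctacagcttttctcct

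Of the 31 members, 23 had windows, 30 in all, and ITGA3, ITGA7, ITGA9, ITGB2, ITGB3, ITGB4, LAMA1 and LAMC3 were not in the table. The AP-1 motif TGAGTCA was found on either strand in 1 window each of ITGA5, LAMA3 and LAMB3, against 4.95% of all 35116 windows. In the printed LAMB3 window it began at position -67 from the start listed for that window, which was 53.7% GC. The other LAMB3 windows, chr1:209652280-209652579 and chr1:209652376-209652675, lie upstream of it on the gene's strand and held neither motif searched. The ITGA2 window also held neither and was 72.7% GC. The NRF2 motif TGACNNNGC, which can overlap an AP-1 motif, was found in 1 window each of ITGA1, ITGA8, ITGB1 and ITGB5, against 13.3% of all windows. A match says only that these letters lie in the window.

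The most abundant members per kilobase of exon were LAMC1, ITGB1 and ITGA5, and each class was led by 1 gene. On the scale of normalized counts per kilobase of merged exons (GENCODE 44 on GRCh37), averaged over 12 libraries, LAMC1, the γ chain shared by most laminins, stood at 6119, ITGB1, the β subunit of the largest group of integrins, at 5001 and ITGA5, its partner in the main fibronectin receptor, at 4240. ITGB5, a partner of αV in vitronectin receptors, followed at 2764. Merged exons join those of all annotated transcripts, and the order depends on this length. Before division ITGB1 lay above LAMC1, with means of 72259 and 48825 normalized counts in GFP cells with Cyss. Their merged exons were 14561 and 8446 bases long. With all 31 ranked together, the ranges over libraries of neighbours overlapped except between LAMC1 and ITGB1, ITGA5 and ITGB5, ITGB5 and LAMB2, LAMB1 and ITGA8, ITGA10 and ITGA4, ITGA1 and ITGAE, LAMA4 and LAMA1, and ITGB8 and LAMA3.

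ITGA5 made up 43.8% of the summed α subunits and ITGB1 made up 64.1% of the summed β subunits. After ITGA5, the α subunits came in the order ITGA11 (1571 per kilobase) and ITGA2 (1237), both collagen receptors, then ITGA8 (702), ITGA3 (552), ITGAV (512), ITGA10 (264), ITGA4 (181), ITGA1 (176), ITGAE (122) and ITGA6 (110), with ITGA9 (1.38) and ITGA7 (0.974) far below. After ITGB1 and ITGB5, the β subunits fell to 16.6 for ITGB3, 13.0 for ITGB8 and 2.12 for ITGB6.

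Among laminin chains, LAMA5 (407 per kilobase) made up 61.3% of the summed α chains, ahead of LAMA2 (118), LAMA4 (103), LAMA1 (32.7) and LAMA3 (3.37). LAMB2 (1741) and LAMB1 (984) led the β chains per kilobase, LAMB2 with 58.1% of the sum, and LAMB3, the β chain of the laminin that anchors epithelia, stood at 272. Before division by length the order of LAMB2 and LAMB1 was the reverse in every group, with means of 11303 and 17754 normalized counts in GFP cells with Cyss. Their merged exons were 6865 and 18592 bases long. The γ chains were LAMC1 alone to within rounding.

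**Figure D1:**
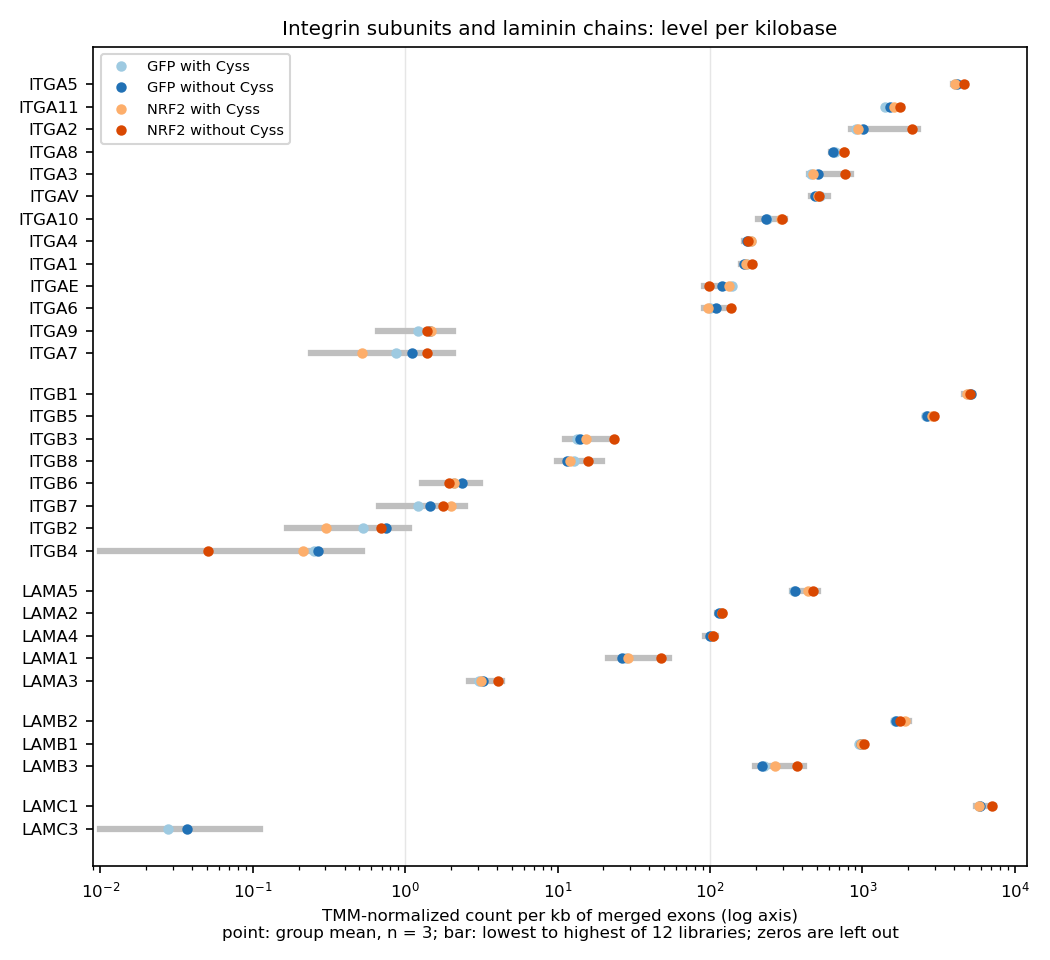
Levels of the 31 members on a log axis, in TMM-normalized counts per kilobase of merged exons, grouped by class. Points are means of the 3 libraries of a group and bars span all 12 libraries. LAMC1 (6119) and ITGB1 (5001) lie highest, and the NRF2 cells without Cyss lie to the right of the other groups for ITGA2, ITGA3, ITGA6, ITGB3, LAMA1 and LAMB3, among others.

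A mean under 10 normalized counts in every group left 4 members untested. These were ITGB2, the β subunit of leukocyte integrins, with 1 to 7 reads per library, ITGB4, the partner of α6 in hemidesmosomes, with 0 to 4 reads, ITGB7, a β subunit of lymphocytes, with 4 to 10 reads, and LAMC3, with 0 or 1 read. The other 27 were tested in at least 1 comparison, and ITGA7, ITGA9 and ITGB6 among them rested on at most 19 reads per library. Counting was not stranded, in a mode that assigns no read fitting several genes equally. Members whose exons overlap another gene may thus lack reads over the shared bases. They may instead hold reads of the other gene if the annotation counted on lacked it. Such members include ITGA1 (PELO), ITGA4 (CERKL) and ITGAE (HASPIN, 505 bases with another gene on the opposite strand). Others are ITGB3 (2266 bases with a gene on the same strand) and LAMA1 (1754 bases with genes on the opposite strand). Levels per kilobase were still divided by the full length of merged exons. ITGB1 shares sequence with the processed pseudogene ITGB1P1, which held 6657 to 8071 normalized counts, and with its reads added ITGB1 still passed the test in no comparison.

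The first question was what loss of Cyss did to these genes in the control cells. In GFP cells no member was a DEG, and 1 of 27 tested, ITGAE, passed the test at all, with a smaller log2FC than set for a DEG. The test was the quasi-likelihood test of edgeR, adjusted by Benjamini-Hochberg over all genes tested, and DEGs were genes with a log2FC beyond 0.32 in either direction and an adjusted p under 0.1. The standard error (SE) is that of the log2FC. The DEGs among members were 0 higher and 0 lower, where 1.57% of all genes tested were higher DEGs and 0.533% lower DEGs. At an unadjusted p under 0.05, 1 member was higher and 2 were lower. DESeq2's Wald test also gave 0 DEGs among members, beside 217 higher and 69 lower of 17452 genes tested. For counts at an unadjusted p, here and below, no share of all genes is given, so they cannot be set against the other genes.

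ITGAE encodes the α subunit of an E-cadherin receptor known from lymphocytes within epithelia. Its normalized counts were 939, 894 and 907 in the GFP libraries with Cyss and 756, 796 and 817 in those without, a log2FC of -0.21 (adjusted p = 0.0490, SE 0.0531). All 3 libraries without Cyss lay below all 3 with Cyss. At an adjusted p under 0.1 alone, 2.81% of all genes tested were lower and 3.11% higher. ITGA11, an α subunit of fibroblast collagen receptors, had a log2FC of 0.10 (adjusted p = 0.119) and ITGA4, an α subunit of fibronectin and VCAM-1 receptors, one of -0.10 (adjusted p = 0.256), and neither passed. The median log2FC of the 27 members was 0.02, beside 0.0015 for all genes tested, and 2 members lay higher and 2 lower with no overlap between groups, beside 11.5% and 12.1% of all genes tested.

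The library of GFP cells without Cyss that stood apart also held the highest values of its group for ITGA2, ITGA3, ITGA6, ITGB3, LAMA1, LAMB3 and LAMC1. Without it, the log2FC of ITGA2 in GFP cells was -0.09 (adjusted p = 0.336) in place of 0.14 (adjusted p = 0.580), and that of LAMA1 was -0.32 (adjusted p = 0.0628), just under the fold of a DEG in size, in place of -0.08 (adjusted p = 0.790). ITGAE still passed without it, at -0.23 (adjusted p = 0.0629).

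The same deprivation was then followed in cells expressing NRF2. There 8 of 27 members were higher DEGs without than with Cyss, 6 receptors of 18 tested and 2 laminin chains of 9, and 1 receptor, ITGAE, was a lower DEG. The highest folds on many reads were those of ITGA2 (2.25-fold), LAMA1 (1.65-fold) and ITGA3 (1.62-fold). Over all genes tested, 6.81% were higher DEGs and 5.14% lower DEGs. At an adjusted p under 0.1 alone, 12 members passed as higher, beside 15.2% of all genes tested, and 1 as lower, beside 13.8%.

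By the ligand that each α subunit is known for, a grouping made after the values were seen, the higher DEGs were 1 of 4 collagen-binding α subunits, 3 of 3 laminin-binding and 0 of 3 that bind the RGD sequence of fibronectin and vitronectin, and of 3 with other ligands 0 were higher and 1, ITGAE, lower, beside the 6.81% and 5.14% of all genes tested. At an adjusted p under 0.1 alone, 3, 3, 1 and 0 were higher, beside 15.2% of all genes tested, and 1 with other ligands was lower, beside 13.8%. ITGA2, which binds collagen and laminin, was counted as collagen-binding. The 3 laminin-binding subunits include ITGA7, which had at most 19 reads per library, overlapping groups and no call by DESeq2's Wald test. It was tested only because of its mean in the higher group, so its call adds little to the 3 of 3.

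ITGA2 (chromosome 5, 52285170 to 52390609 in GRCh37), the α subunit of a collagen and laminin receptor of epithelia and platelets, had 7561, 7391 and 7155 normalized counts in the NRF2 libraries with Cyss and 14877, 16664 and 18276 in those without. In GFP cells the values were 7367, 6837 and 7311 with Cyss and 6618, 6820.2 and 10353 without. The 3 NRF2 libraries without Cyss lay above the other 9, and the next highest was the GFP library that stood apart. The log2FC in NRF2 cells was 1.17 (adjusted p = 6.86e-09, SE 0.0622).

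ITGA3 (chromosome 17, 48133332 to 48167845), the α subunit of an epithelial laminin receptor, had 4917, 4392 and 4669.7 normalized counts with Cyss and 7099.9, 7327 and 8211 without in NRF2 cells. In GFP cells its values were 4440.0, 4519 and 4468 with Cyss and 4383, 4719 and 5827 without. Again the NRF2 libraries without Cyss lay above the other 9, with a log2FC of 0.69 (adjusted p = 7.41e-07, SE 0.0588).

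ITGA6 (chromosome 2, 173292082 to 173371187), the α subunit of laminin receptors that is also used as a marker of stem-like epithelial cells, had 611, 674 and 648 normalized counts with Cyss and 907, 889.7 and 937 without in NRF2 cells. The GFP libraries held 668, 621 and 699 with Cyss and 693, 689.6 and 795 without. The groups of NRF2 cells did not overlap, with a log2FC of 0.50 (adjusted p = 3.01e-05, SE 0.0608). ITGA7, the laminin receptor subunit of muscle, had a log2FC of 1.36 (adjusted p = 0.0632, SE 0.493) from 3.66, 8.45 and 2.19 normalized counts with Cyss and 10.6, 8.25 and 18.8 without, so its groups overlapped. In GFP cells it had 7.05, 9.69 and 6.99 with Cyss and 9.004, 11.5 and 9.89 without, and 4 of these 6 libraries lay above every NRF2 library with Cyss. It was no DEG without NRF2 replicate 1 or 3 with Cyss, and was not tested without NRF2 replicate 3 without Cyss, its highest value.

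Of the β subunits, ITGB3 and ITGB8 were higher DEGs, and ITGB1 and ITGB5, which are far more abundant, did not pass. ITGB3 (chromosome 17, 45331193 to 45391109), the β subunit of the platelet fibrinogen receptor and of a vitronectin receptor, had 109.7, 95.1 and 112 normalized counts with Cyss and 162, 153 and 163 without in NRF2 cells. In GFP cells its values were 76.7, 96.2 and 103 with Cyss and 98.0, 77.0 and 114 without. The NRF2 libraries without Cyss were the highest of the 12, with a log2FC of 0.59 (adjusted p = 0.00159, SE 0.113).

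ITGB8 (chromosome 7, 20370325 to 20455377), a partner of αV in the activation of latent TGF-β, had 184, 181 and 179.8 normalized counts with Cyss and 296, 222 and 201 without in NRF2 cells. Its values in GFP cells were 232, 171 and 182 with Cyss and 197, 176 and 149 without. The NRF2 groups did not overlap, but GFP replicate 1 with Cyss lay above NRF2 replicates 2 and 3 without. The log2FC of 0.39 (adjusted p = 0.0406, SE 0.129) fell short of a DEG when NRF2 replicate 2 or 3 with Cyss or NRF2 replicate 1 without Cyss was left out, with values from 0.22 to 0.51 over the 6 libraries left out in turn.

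ITGB1 had 69348, 71846 and 70156 normalized counts with Cyss and 67753, 75590.4 and 77427 without in NRF2 cells, groups that overlapped (log2FC 0.06, adjusted p = 0.426). In GFP cells it had 72248, 71497 and 73031 with Cyss and 73491, 74591 and 76924 without. ITGB5 had 18906, 18393 and 18909 with Cyss and 18489, 19021 and 19793 without in NRF2 cells, also overlapping (log2FC 0.03, adjusted p = 0.711), and 16923, 17428 and 17231 in GFP cells without Cyss.

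Of the laminin chains, LAMA1 and LAMB3 were higher DEGs, and LAMC1 passed the test with a smaller log2FC. LAMA1 (chromosome 18, 6941741 to 7117796), the α chain of the laminin of the early embryo, had 485, 475 and 412 normalized counts with Cyss and 615, 791 and 859 without in NRF2 cells. In GFP cells the values were 447, 418 and 468 with Cyss and 372, 339 and 548 without. The 3 NRF2 libraries without Cyss lay above the other 9, with a log2FC of 0.72 (adjusted p = 1.63e-04, SE 0.106).

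LAMB3 (chromosome 1, 209788215 to 209825770) had 1276, 1236 and 1228 normalized counts with Cyss and 1628, 1651 and 1925 without in NRF2 cells. In GFP cells it had 1039, 1108 and 1017 with Cyss and 918, 1007 and 1128 without, so that NRF2 cells lay above GFP cells already with Cyss. Its log2FC in NRF2 cells was 0.48 (adjusted p = 7.57e-05, SE 0.0640).

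LAMC1 (chromosome 1, 182992555 to 183114727) had 49668, 49488 and 47194 normalized counts with Cyss and 55589, 60529 and 62092 without in NRF2 cells. The GFP libraries held 49422, 48060.3 and 48993 with Cyss and 48777, 47339 and 53019.9 without. Its log2FC in NRF2 cells was 0.28 (adjusted p = 6.54e-04, SE 0.0483), below the fold set for a DEG, and the groups did not overlap. It passed that fold (0.33) without NRF2 replicate 1 without Cyss. LAMA5, LAMB1 and LAMB2, the most abundant α and β chains, had log2FCs of 0.11, 0.05 and -0.10 and did not pass. LAMB1, the β chain of embryonic and vascular laminins, had 17882, 18442 and 18444 normalized counts with Cyss and 18447, 18958 and 19447 without in NRF2 cells, and 17642, 17896 and 17725 with Cyss and 17747, 18238 and 18759.5 without in GFP cells, from 17642 to 19447 over all 12 libraries. LAMA3, on 34 to 62 reads per library, had a log2FC of 0.37 (adjusted p = 0.142).

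ITGAE (chromosome 17, 3617922 to 3704482) went the other way. It had 892, 899 and 852 normalized counts with Cyss and 599, 673 and 672 without in NRF2 cells, with no overlap, and a log2FC of -0.44 (adjusted p = 1.45e-04, SE 0.0640). The NRF2 libraries without Cyss were the lowest of the 12.

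ITGA5, ITGA11 and ITGA1 passed the test with small log2FCs. ITGA5 had 30088, 30137 and 30077 normalized counts with Cyss and 32833, 35529.8 and 35042 without in NRF2 cells, a log2FC of 0.19 (adjusted p = 0.00497), against 30175, 30343 and 29083 with Cyss and 30057, 30512 and 31783 without in GFP cells. ITGA1, a collagen receptor subunit of mesenchymal cells, had 3088, 3346 and 3135 with Cyss and 3373, 3596 and 3518 without in NRF2 cells, a log2FC of 0.13 (adjusted p = 0.0701), against 3282, 3147 and 3320.5 with Cyss and 3192, 2977 and 3171 without in GFP cells. ITGA11 had a log2FC of 0.13 (adjusted p = 0.0393). The median log2FC of the 27 members was 0.11, beside -0.01 for all genes tested, with 19 members above 0 where 47.8% of all genes tested were. Groups did not overlap for 13 members that were higher and 3 that were lower, beside 19.3% and 18.5% of all genes tested.

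**Figure D2:**
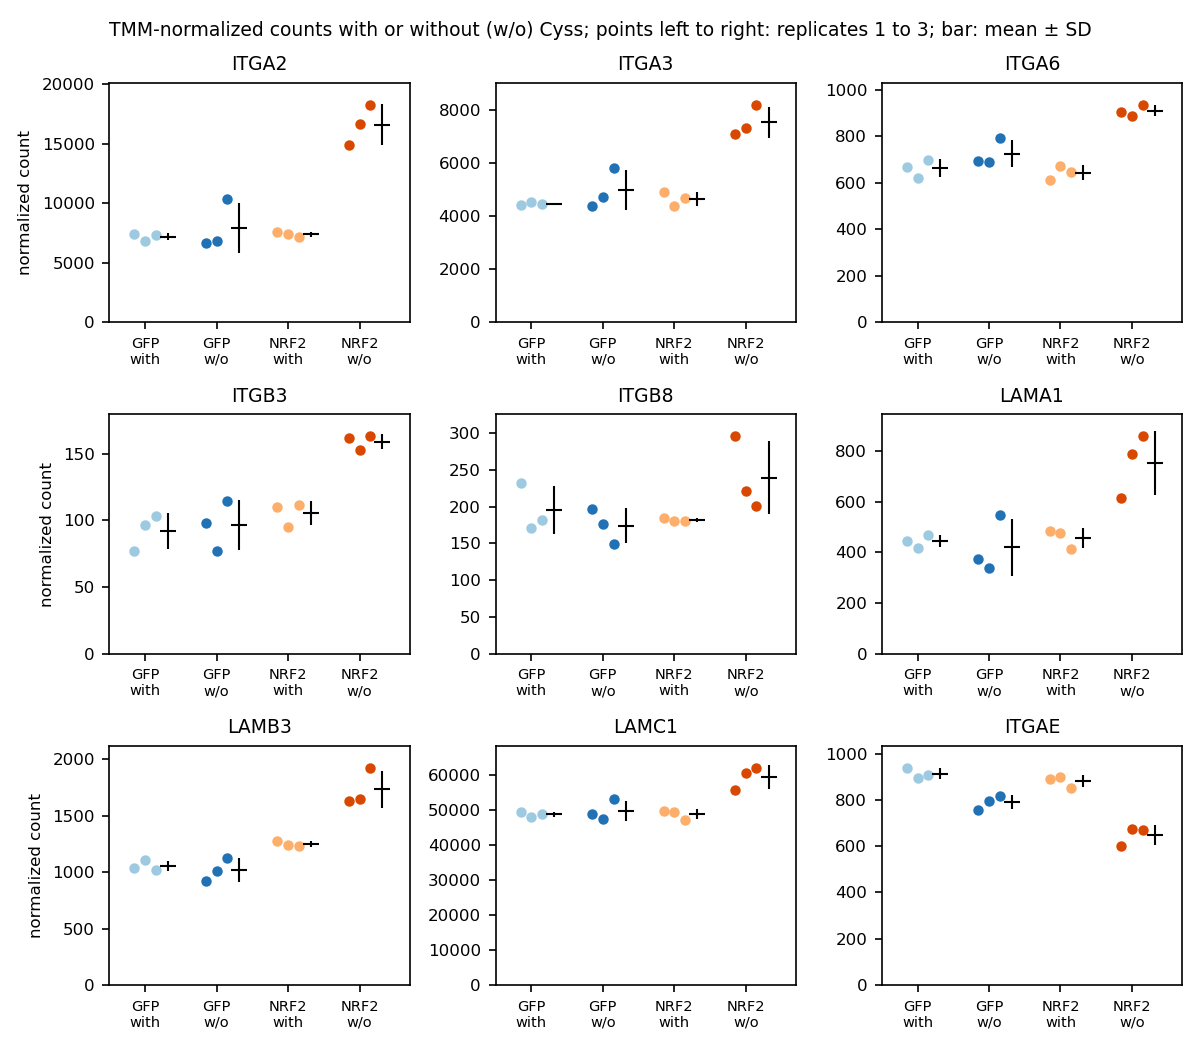
TMM-normalized counts of 9 members in each of the 12 libraries, on linear axes from 0, with the mean ± SD of the 3 libraries of a group beside the points. In NRF2 cells without Cyss (w/o), ITGA2 (14877 to 18276), ITGA3 and LAMA1 lie above every other library and ITGAE (599 to 673) below, and replicate 3 of GFP cells without Cyss is the highest of its group for ITGA2, ITGA3, ITGA6, ITGB3, LAMA1, LAMB3 and LAMC1.

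Whether the response to Cyss deprivation differed between NRF2 and GFP cells was asked of all 12 libraries by an interaction term, called at an adjusted p under 0.1. The response was higher in NRF2 cells for 10 of 27 members and lower for 1, beside 8.97% and 6.13% of all genes tested. The 10 were 7 receptors, ITGA2, ITGB8, ITGA3, ITGB3, ITGA6, ITGA1 and ITGA5, and 3 laminin chains, LAMA1, LAMB3 and LAMC1. The differences of the log2FCs, NRF2 minus GFP cells, were 1.03 for ITGA2 (adjusted p = 0.00103, SE 0.162), 0.81 for LAMA1 (adjusted p = 0.0151, SE 0.194) and 0.54 for ITGA3 (adjusted p = 0.00489, SE 0.109). ITGA2, ITGA3, ITGA6, LAMA1, LAMB3 and LAMC1 also passed at an adjusted p under 0.05. ITGAE was the member with the lower response, at -0.23 (adjusted p = 0.0785). ITGA7, for all its fold in NRF2 cells, did not pass (1.03, adjusted p = 0.307, SE 0.607).

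Without the GFP library that stood apart, 9 of these 10 members passed, beside 9.68% of all genes tested, and the difference was 1.27 for ITGA2, 1.04 for LAMA1 and 0.67 for ITGA3. ITGB8 (adjusted p = 0.174) and ITGAE (adjusted p = 0.137) no longer passed. The calls of ITGA1, ITGA5, ITGB3, ITGB8 and ITGAE were each lost in at least 6 of the 12 fits that left out 1 library.

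**Figure D3:**
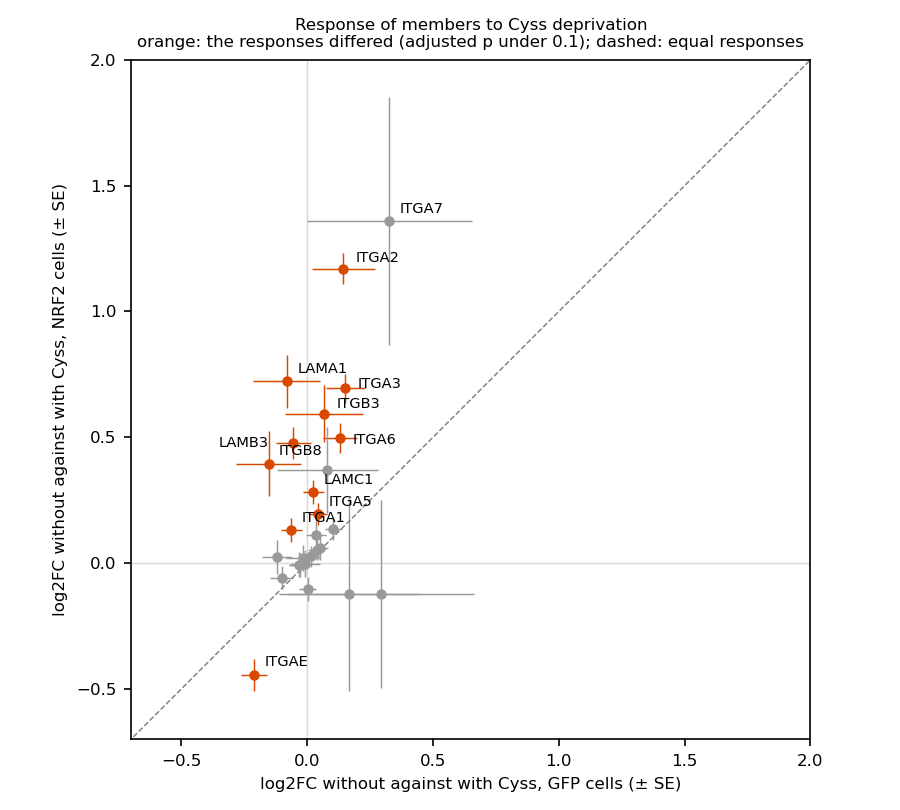
Response to Cyss deprivation of the 27 tested members, as the log2FC without against with Cyss in GFP cells (horizontal axis) and in NRF2 cells (vertical axis), with standard errors. Orange points are the 11 members whose responses differed, and the dashed line marks equal responses. ITGA2 lies at 0.14 on the GFP axis and 1.17 on the NRF2 axis, and ITGAE lies below the line.

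Expression of NRF2 was next compared with GFP in the presence of Cyss. Under this condition 0 members of 26 tested were DEGs, higher or lower, beside 1.36% and 0.201% of all genes tested. DESeq2's Wald test also gave 0 among members, beside 155 higher and 15 lower of 17449 genes tested. ITGA7 was not tested here, as its mean was under 10 in both groups. With smaller log2FCs, 7 members passed as higher and 0 as lower, beside 4.15% and 2.28% of all genes tested, and the same counts, 7 and 0, had an unadjusted p under 0.05. The 7 were 3 laminin chains, LAMA5, LAMB3 and LAMB2, and 4 receptors, ITGA10, ITGA8, ITGA11 and ITGB5.

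LAMA5 (chromosome 20, 60883011 to 60942368), the α chain of most adult basement membranes, had 5087, 5147 and 4912 normalized counts in GFP cells and 6938, 5861 and 6003 in NRF2 cells with Cyss. Without Cyss it had 5011, 5180.1 and 5352 in GFP cells and 7276, 6455 and 6587 in NRF2 cells. All 6 NRF2 libraries lay above all 6 GFP libraries. With Cyss the log2FC was 0.31 (adjusted p = 0.00236, SE 0.0513), just under the fold set for a DEG, and it passed that fold without NRF2 replicate 2 or 3 or GFP replicate 2.

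LAMB2, the β chain of the laminins of muscle and kidney, had 11205, 11568 and 11135 normalized counts in GFP cells and 13769.7, 12586 and 12732 in NRF2 cells with Cyss, with no overlap (log2FC 0.20, adjusted p = 0.00602). Without Cyss it had 11137, 11404 and 11439 in GFP cells and 12418, 11726 and 12292 in NRF2 cells, groups that did not overlap either, but it did not pass (log2FC 0.09, adjusted p = 0.184). The difference between the 2 responses to deprivation did not pass for LAMB2 either (-0.10, adjusted p = 0.278), but did when counts were scaled by library size only (-0.16, adjusted p = 0.0887). That scaling also moved the median difference of all genes tested from -0.01 to -0.07. LAMB3 had a log2FC of 0.24 (adjusted p = 0.0112) with Cyss.

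ITGA10, a collagen receptor subunit of cartilage, ranged from 1437 to 1506 normalized counts in GFP cells and from 1789 to 1839.8 in NRF2 cells with Cyss (log2FC 0.29, adjusted p = 6.48e-04). ITGA8, a partner of β1 that binds nephronectin, had a log2FC of 0.20 (adjusted p = 0.00572), ITGA11 one of 0.19 (adjusted p = 0.00309) and ITGB5 one of 0.14 (adjusted p = 0.0263). For ITGB5 the counts were 16646, 17383 and 16931 in GFP cells and 18906, 18393 and 18909 in NRF2 cells. All 7 had groups that did not overlap, and so did ITGA9 and LAMA4, which did not pass, making 9 members higher and 0 lower, beside 12.6% and 12.1% of all genes tested. The members with the highest responses to deprivation in NRF2 cells were not among the 7 with Cyss apart from LAMB3, ITGA2 having a log2FC of 0.04 (adjusted p = 0.627), ITGA3 one of 0.06 (adjusted p = 0.485) and LAMA1 one of 0.04 (adjusted p = 0.797).

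**Figure D4:**
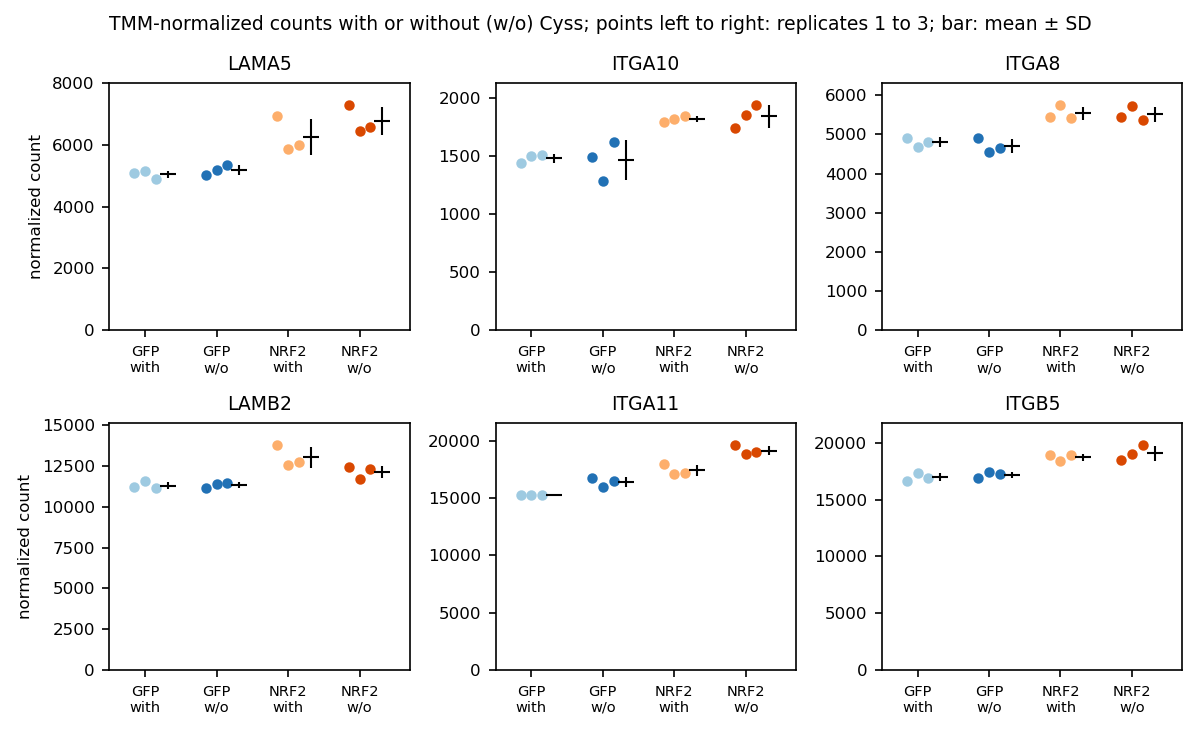
TMM-normalized counts, on linear axes from 0, of the other 6 members that were higher in NRF2 than in GFP cells with Cyss, in each of the 12 libraries, with the mean ± SD of each group. The NRF2 libraries of LAMA5 (5861 to 7276) lie above its GFP libraries (4912 to 5352) in both media.

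Without Cyss, NRF2 was compared with GFP on libraries that include the 3 of NRF2 cells without Cyss already used for the response above. There 7 members of 27 were higher DEGs, 4 receptors and 3 laminin chains, and 0 were lower DEGs, beside 5.98% and 4.09% of all genes tested. They were ITGA2 (log2FC 1.05, adjusted p = 5.40e-04, SE 0.137), LAMA1 (0.83, adjusted p = 0.00367), LAMB3 (0.76, adjusted p = 2.84e-04), ITGB3 (0.71, adjusted p = 0.00438), ITGA3 (0.59, adjusted p = 0.00125), ITGB8 (0.44, adjusted p = 0.0525) and LAMA5 (0.37, adjusted p = 0.00105).

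At an adjusted p under 0.1 alone, 15 members passed as higher, beside 14.0% of all genes tested, and 1, ITGAE, as lower, beside 14.7% (log2FC -0.30, adjusted p = 0.00918). The unadjusted p was under 0.05 for 15 and 1. DESeq2's Wald test also gave 0 lower DEGs among members, beside 432 of 17297 genes tested. Of the receptors that passed below the fold of a DEG, ITGA10 (0.32) and ITGA6 (0.32) lay just under it, followed by ITGA8 (0.22), ITGA11 (0.21), ITGA1 (0.15), ITGA5 (0.15) and ITGB5 (0.14), and LAMC1 (0.24) was the laminin chain that did so. ITGA8, ITGA10, ITGA11 and ITGB5 thus passed in both media, with log2FCs of 0.20, 0.29, 0.19 and 0.14 with Cyss, and their responses to deprivation did not pass the test for a difference between NRF2 and GFP cells.

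The median log2FC of the 27 members was 0.21, beside -0.02 for all genes tested, and 23 members lay above 0, all 9 laminin chains tested among them, where 46.8% of all genes tested did. Groups did not overlap for 16 members that were higher and 1 that was lower, beside 19.4% and 18.9% of all genes tested. ITGB1 had a log2FC of -0.04 (adjusted p = 0.625), ITGAV, the α subunit that pairs with most RGD-binding β subunits, one of 0.08 (adjusted p = 0.421) and ITGA4 one of 0.02 (adjusted p = 0.842). LAMA2 (0.03), LAMA4 (0.05) and LAMB1 (0.04) were near 0 as well. ITGA9 (-0.12, SE 0.446) and ITGB6 (-0.29, SE 0.336) were too thinly covered for a difference of that size to be detectable at this depth.

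Without the GFP library that stood apart, 9 members were higher DEGs, beside 6.54% of all genes tested. ITGA6 (0.39), ITGA10 (0.40) and LAMA3 (0.54) were added and ITGB8 (0.34, adjusted p = 0.156) was lost, and the log2FC rose to 1.29 for ITGA2, 1.07 for LAMA1 and 0.84 for LAMB3. ITGB8 was also lost without GFP replicate 2 or NRF2 replicate 1. Close to the fold of a DEG, ITGA6 became one without NRF2 replicate 1 or 2, ITGA10 without NRF2 replicate 1 or GFP replicate 1, and ITGAE a lower one without NRF2 replicate 2 or 3 or GFP replicate 1 (log2FC -0.32 to -0.33).

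**Figure D5:**
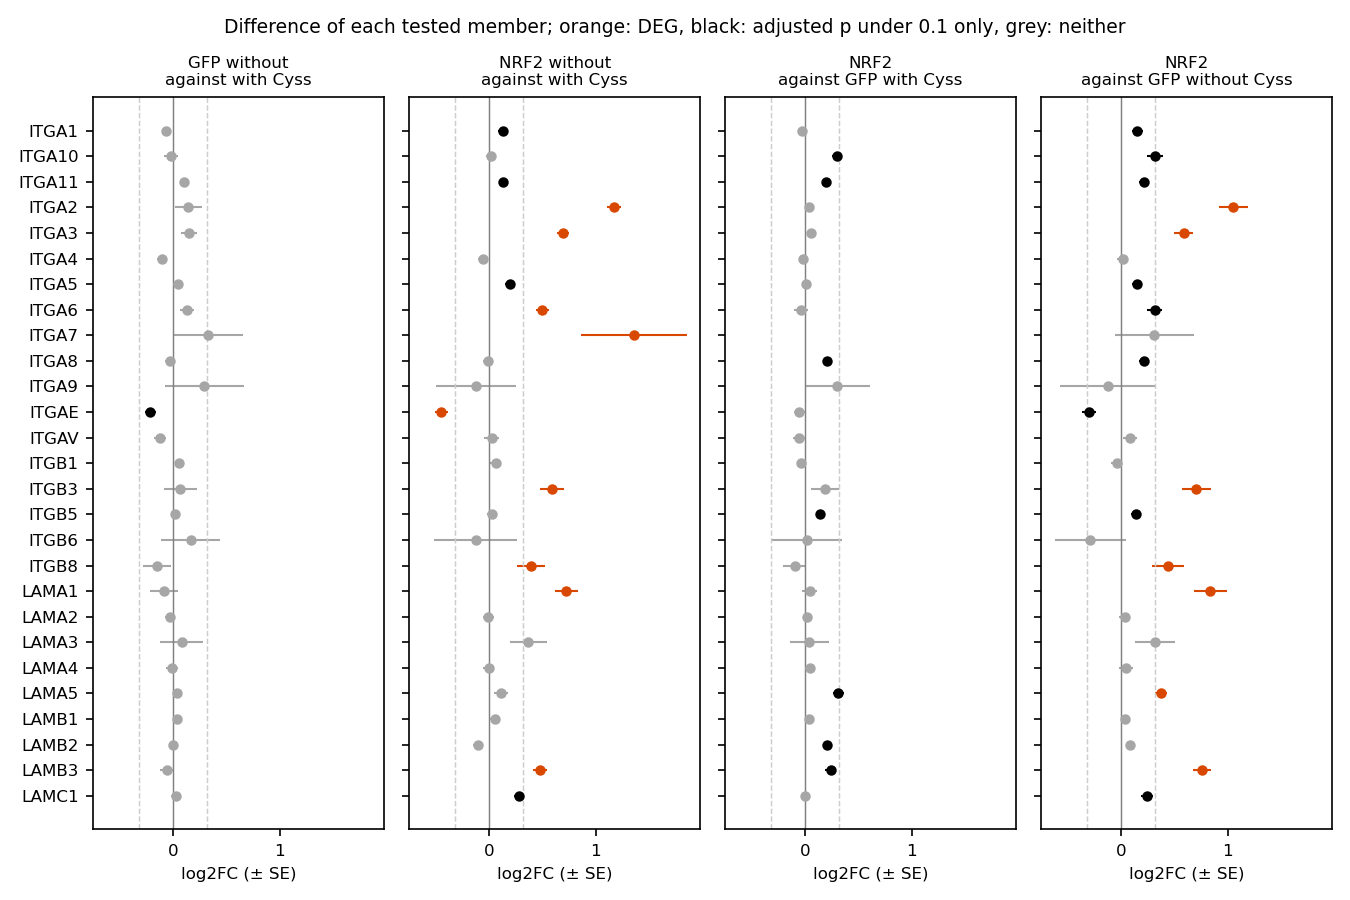
log2FC with its standard error of the 27 tested members in the 4 comparisons, with dashed lines at -0.32 and 0.32. Orange points are DEGs, black points passed at an adjusted p under 0.1 with a smaller log2FC and grey points did neither. Only ITGAE is black in GFP cells without against with Cyss, whereas ITGA2 lies at 1.17 in NRF2 cells without against with Cyss and at 1.05 against GFP cells without Cyss.

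Genes that act with integrins and laminins were read from 3 lists, made with earlier results of these data known. Of 28 tested adaptors between integrins and actin, 3 were higher DEGs and 1 a lower DEG in NRF2 cells without against with Cyss, beside 6.81% and 5.14% of all genes tested. FERMT1, the kindlin of epithelia that activates integrins, was 2.17-fold higher (adjusted p = 1.97e-07, SE 0.0831), TNS3, a tensin, 1.39-fold (adjusted p = 1.31e-06) and PXN, which encodes paxillin, 1.34-fold (adjusted p = 1.23e-05). NEDD9, a docking protein of focal adhesions, had a log2FC of -0.37 (adjusted p = 0.00736). At an adjusted p under 0.1 alone, 11 adaptors passed as higher and 2 as lower, beside 15.2% and 13.8%.

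In NRF2 against GFP cells without Cyss, 4 adaptors were higher DEGs and 1 a lower DEG, beside 5.98% and 4.09% of all genes tested. The higher ones were led by FERMT1 (0.82, adjusted p = 0.00141), LIMS1, a partner of integrin-linked kinase (0.51, adjusted p = 0.00124), and PXN (0.44, adjusted p = 0.00170). The lower one was again NEDD9 (-0.34, adjusted p = 0.0770). With Cyss, FERMT1 lay lower in cells with NRF2 than with GFP (-0.20, adjusted p = 0.0432). The responses to deprivation differed between NRF2 and GFP cells for 10 adaptors that were higher and 2 that were lower, beside 8.97% and 6.13% of all genes tested. In GFP cells without against with Cyss there were 0 DEGs in the list, with an unadjusted p under 0.05 for 1 higher and 4 lower.

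Of the other integrin ligands and basement membrane proteins, 23 were tested in NRF2 cells without against with Cyss, and 3 were higher and 0 lower DEGs, beside 6.81% and 5.14% of all genes tested. At an adjusted p under 0.1 alone, 7 passed as higher and 4 as lower, beside 15.2% and 13.8%. On the log2 scale ICAM1, the ligand of leukocyte integrins, rose by 1.39 (adjusted p = 9.31e-07), CTGF, a matricellular protein, by 0.54 (adjusted p = 2.39e-07) and THBS1, thrombospondin, by 0.42 (adjusted p = 9.42e-04). Against GFP cells without Cyss, 4 of 24 were higher DEGs, led by ICAM1 (1.25, adjusted p = 3.09e-04) and TNC, tenascin (0.49, adjusted p = 1.52e-04), and 2 were lower, TGFBI (-0.45, adjusted p = 2.84e-04) and POSTN, periostin (-0.32, adjusted p = 0.00179), both secreted ligands of αV integrins, beside 5.98% and 4.09% of all genes tested. In GFP cells without against with Cyss 3 ligands passed as higher below the fold of a DEG, beside 3.11% of all genes tested. They were CTGF (0.28, adjusted p = 4.34e-04), NTN4, a netrin of basement membranes (0.17, adjusted p = 0.0477), and THBS1 (0.13, adjusted p = 0.0448). In NRF2 against GFP cells with Cyss 0 of 24 ligands were DEGs, beside 1.36% and 0.201% of all genes tested. There 7 passed as higher and 3 as lower at an adjusted p under 0.1 alone, beside 4.15% and 2.28%.

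Among 13 laminin receptors and membrane partners that are not integrins, 2 were higher DEGs in NRF2 cells without against with Cyss, beside 6.81% of all genes tested, and the same count passed at an adjusted p under 0.1 alone, beside 15.2%. They were CD44, the hyaluronan receptor (0.41, adjusted p = 2.73e-06), and SDC4, the syndecan of focal adhesions (0.32, adjusted p = 1.33e-04), and both responses were higher in NRF2 than in GFP cells (0.41 and 0.30). The median log2FC in that comparison was -0.01 for the 13 genes, 0.08 for the adaptors and 0.05 for the ligands, beside -0.01 for all genes tested. In NRF2 against GFP cells without Cyss 0 of the 13 were DEGs, beside 5.98% and 4.09%. There 6 passed as higher and 1, SDC2, as lower at an adjusted p under 0.1 alone, beside 14.0% and 14.7%. With Cyss 2 passed as higher and 1 as lower, beside 4.15% and 2.28%. The lower one was CD44 (-0.12, adjusted p = 0.0543), so its rise in NRF2 cells began from a lower level.

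The 3 lists were read again without the GFP library that stood apart, a check added after the data were seen. In NRF2 against GFP cells without Cyss, 6 adaptors were then higher DEGs and 1, NEDD9, a lower DEG, TLN1, which encodes talin, and CSK being added, beside 6.54% and 4.66% of all genes tested, and FERMT1 had a log2FC of 1.02 in place of 0.82. The other ligands gave 4 higher and 2 lower DEGs, with ICAM1 at 1.31, and CD44 became a higher DEG at 0.33. The responses differed for 10 adaptors that were higher and 2 that were lower, and for 5 ligands that were higher, CYR61 being lost (adjusted p = 0.108), and 1 that was lower, beside 9.68% and 6.85% of all genes tested. In GFP cells each list gave 0 DEGs, beside 1.33% and 0.387% of all genes tested.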

How the data were processed

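TruSeq mRNA libraries were sequenced single end by the authors, who used TopHat 2.1.0 to place the reads on hg19 and counted them on exons with HTSeq 0.11.2, without regard to strand and in intersection-nonempty mode. The deposited values are raw counts per gene symbol, 1 file per library, and the annotation behind the symbols is not given in the sources used here. Of all reads in a file, 15.9 to 17.1% were in the counters HTSeq adds for reads it did not assign, which were left out. As in the study's methods, rRNA genes, 523 by name with 0.304 to 0.366% of the reads on genes, were removed, which left 55242 genes.

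For each pair of groups, a gene was kept if its TMM-normalized counts averaged 10 or more in either group, TMM factors were recomputed, and edgeR 4.0.16 in R 4.3.3 was used for the quasi-likelihood test with Benjamini-Hochberg adjustment. The interaction was tested on all 12 libraries, with genes at a mean of at least 10 in any group. DEGs were genes beyond 0.32 in log2FC with an adjusted p under 0.1, as in the study's legends. The procedure was tested on simulated data.

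The members, the lists of related genes, the markers and the tests were chosen with earlier results of these data known. By the rule for named genes, all members are accounted for, with values in every library for those that were DEGs or differed in response and for the 3 integrin subunits and 3 laminin chains with the highest levels per kilobase, and at most 3 DEGs with the largest log2FC in size are named per related list and comparison. NEDD9, POSTN, TLN1, CSK, CYR61 and the genes of these lists given below the fold of a DEG were named outside this rule, after their values were seen. The grouping of α subunits by ligand was made after the values were seen. Exon lengths, positions and overlaps come from GENCODE 44 on GRCh37, whose gene models may differ from those counted on, and promoter windows from RefSeq on GRCh38.p14.

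Other settings tried were scaling by library size only or by the size factors of DESeq2, the Wald test of DESeq2 1.42.0, a fit on all 12 libraries, no filter on low counts or filterByExpr, a block for the replicate number, other thresholds, leaving out each library in turn and, added after the data were examined, the reads of ITGB1P1 added to ITGB1. Plots were drawn with matplotlib.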

Additional observations from a re-analysis of the deposited data

Results flagged for a closer look

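For 11 members the response to Cyss deprivation in NRF2 cells differed from that in GFP cells by the interaction test over 12 libraries (the quasi-likelihood test of edgeR, Benjamini-Hochberg adjusted p under 0.1), beside 8.97% of all genes tested that were higher and 6.13% that were lower. As NRF2 minus GFP log2FC, the differences among α subunits were 1.03 for ITGA2, 0.54 for ITGA3, 0.37 for ITGA6, 0.19 for ITGA1, 0.15 for ITGA5 and -0.23 for ITGAE. Among β subunits they were 0.55 for ITGB8 and 0.53 for ITGB3. Among laminin chains they were 0.81 for LAMA1, 0.53 for LAMB3 and 0.26 for LAMC1. For ITGA2, ITGA3, ITGA6, LAMA1, LAMB3 and LAMC1 the call held whichever of the 12 libraries was left out, whereas it was lost in 6 of these fits for ITGA1, 9 for ITGA5, 8 for ITGAE, 10 for ITGB3 and 9 for ITGB8.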

How the results depend on the processing

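No difference of a member that passed its test changed direction under the alternatives run. Genes of the 3 related lists were read again only without the GFP library that stood apart, not under the other alternatives. With no fold threshold, DEGs would be 1 lower in GFP cells without against with Cyss (ITGAE), 7 higher in NRF2 against GFP cells with Cyss, and 15 higher and 1 lower (ITGAE) without Cyss. Over all genes tested the shares were 2.81%, 4.15%, 14.0% and 14.7%, in that order. With scaling by library size only, 1 member, ITGAE, was a lower DEG in NRF2 against GFP cells without Cyss, beside 1001 of 17288 genes tested. Under that scaling the interaction gave 6 higher and 2 lower, ITGAE and LAMB2, beside 1124 higher and 1981 lower of 17677 genes tested. In the main fit these were 1585 and 1084 of 17674. The median difference of all genes tested moved from -0.01 in the main fit to -0.07 with that scaling. The interaction gave 0 lower with DESeq2's Wald test, beside 733 of 17674 genes tested, and with no filter on low counts, beside 998 of 35866. It gave 6 higher and 0 lower at an adjusted p under 0.05. For that threshold no share of all genes is given, so these counts cannot be set against the other genes. Over the fits that left out 1 library, 17253 to 17757 genes were tested. The interaction gave 6 to 9 members higher and 0 to 1 lower, beside 913 to 2119 and 482 to 1562 of all genes. NRF2 against GFP cells gave 0 to 1 higher with Cyss, beside 142 to 254. Without Cyss it gave 6 to 9 higher and 0 to 1 lower, beside 765 to 1188 and 425 to 840. NRF2 cells without against with Cyss gave 6 to 8 higher and 1 lower, beside 1028 to 1286 and 734 to 1002. GFP cells gave 0, beside 216 to 306 higher and 55 to 133 lower. The cause of these changes was not tested.

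Same-numbered libraries of the groups compared had deviations from their group means that correlated by -0.0311 to 0.137, and libraries of other numbers by at most 0.0793. These values cannot tell whether libraries were prepared in pairs. With the replicate number as a block, DEGs numbered 8 higher and 1 lower in NRF2 cells without against with Cyss, beside 1192 and 930 of 17266 genes tested. In NRF2 against GFP cells without Cyss they numbered 8 higher (7 without the block, ITGA10 being added), beside 1103 of 17297, and 0 in the other comparisons. The interaction with the block gave 10 higher and 1 lower, beside 1866 and 1307 of 17674.

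ITGA7 lost its call with DESeq2's Wald test (adjusted p = 0.153) and was not tested under filterByExpr. Depth limits ITGA7, ITGA9 and ITGB6, on at most 19 reads per library, and the 4 members under 10 counts were not tested. The planned description of the members' proteins was not run.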
